A study of Homo sapiens with 12 samples.

Results

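The transcriptome of untreated MDA-MB-231 cells in 10 mM glucose was described from 3 RNA-seq libraries, named NG 1 to NG 3, out of 12 libraries in the series. MDA-MB-231 is an established human cell line from a metastatic breast adenocarcinoma, used as a model of triple-negative breast cancer, which lacks the estrogen receptor, the progesterone receptor and amplified HER2. The 3 libraries were chosen by their labels alone, which give 10 mM glucose, no cariporide and a 48 h treatment period, and no measured value entered that choice. The other 9 libraries, from cells given cariporide, less glucose or both, were not used here. The submitters describe the cells as wild type and epithelial, and the cells of all 3 libraries had RPMI with fetal bovine serum and no antibiotics. Total RNA extracted with Trizol went into strand-preserving libraries. It is 1 cell line with 1 condition, and nothing in the labels says that the replicates came from separate cultures, so the spread given below may be technical.

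A triple-negative cell has to draw growth signals from receptors other than those for estrogen and progesterone, and EGFR-family and other receptor tyrosine kinases are the usual candidates. Breast epithelium has luminal cells, marked by keratins 8, 18 and 19, and basal cells, marked by keratins 5 and 14 with p63. Cell lines with few claudins, little E-cadherin and much vimentin are known as claudin-low or mesenchymal-like, and MDA-MB-231 is commonly placed among them.

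The libraries held 21583548, 20771898 and 23372248 counts for NG 1, NG 2 and NG 3, spread over 40929 gene symbols. Levels are CPM, that is counts scaled to a common library size of 1e6 counts, with library totals corrected by the trimmed mean of M-values, for which the factors lay between 0.987 and 1.01. In this scale 1 count was worth 0.0470, 0.0480 and 0.0423 CPM, and a gene at 0 counts could have had up to 3 counts, which is 0.141, 0.144 and 0.127 CPM. That limit covers counting error only. CPM does not correct for gene length, so many levels of different genes are also given as CPM per kb of exon. Where only CPM is given, levels of different genes are not corrected for length. At least 1 CPM in all 3 libraries was reached by 12949 symbols, which is 31.6% of all symbols. Another 18583 symbols (45.4%) had no count in any library, and the remaining 9397 lay between. By class, 11817 of 19738 protein-coding symbols (59.9%) reached 1 CPM in all libraries, against 737 of 17351 long non-coding RNAs (4.25%). Protein-coding symbols held 85.0% ± 1.81 of the counts (SD, n = 3) and long non-coding RNAs 1.43% ± 0.0360.

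Counts were concentrated in few genes. The 10 symbols with the highest mean CPM took 17.6%, 16.1% and 14.8% of the counts in NG 1, NG 2 and NG 3, and the top 100 took 30.8% ± 0.846 (SD, n = 3). With cytosolic ribosomal RNA left out of the counts, the 10 highest took 10.5% ± 0.144, mitochondrial ribosomal RNA still among them. Of the 30 highest symbols, 7 were ribosomal RNAs and 9 were messenger RNAs of the mitochondrial genome. Ribosomal RNA is the structural RNA of ribosomes and is mostly removed or avoided in library preparation. Its cytosolic share differed between the libraries, with 11.2% in NG 1, 9.45% in NG 2 and 7.83% in NG 3. Mitochondrial ribosomal RNA held 3.67%, 3.45% and 3.37%.

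The mitochondrial genome encodes 13 subunits of the respiratory chain and the ATP synthase. All 13 genes reached 1 CPM in every library, beside 59.9% of all protein-coding symbols. Together the 13 genes held 5.36%, 5.88% and 6.36% of the counts in NG 1, NG 2 and NG 3, so NG 1 was lowest and NG 3 highest. COX1, the catalytic subunit of cytochrome c oxidase, had 14523, 15697 and 16780 CPM. ND4, a subunit of complex I, had 7733, 8148 and 8687 CPM, and ATP6, a subunit of the ATP synthase, had 4580, 4855 and 5355 CPM. The same order of libraries held for these 3 genes. Per kb of exon, COX1 stood at 10160 ± 732 CPM per kb, COX3 at 7609 ± 535 and ND4 at 5943 ± 347 (SD, n = 3). ND6, the complex I subunit encoded on the other strand, was far lower, at 319 ± 18.8 CPM per kb. Neighbouring mitochondrial genes overlap or abut, and how the counting treated shared reads was not stated, so their split between genes is uncertain.

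**Figure D1:**
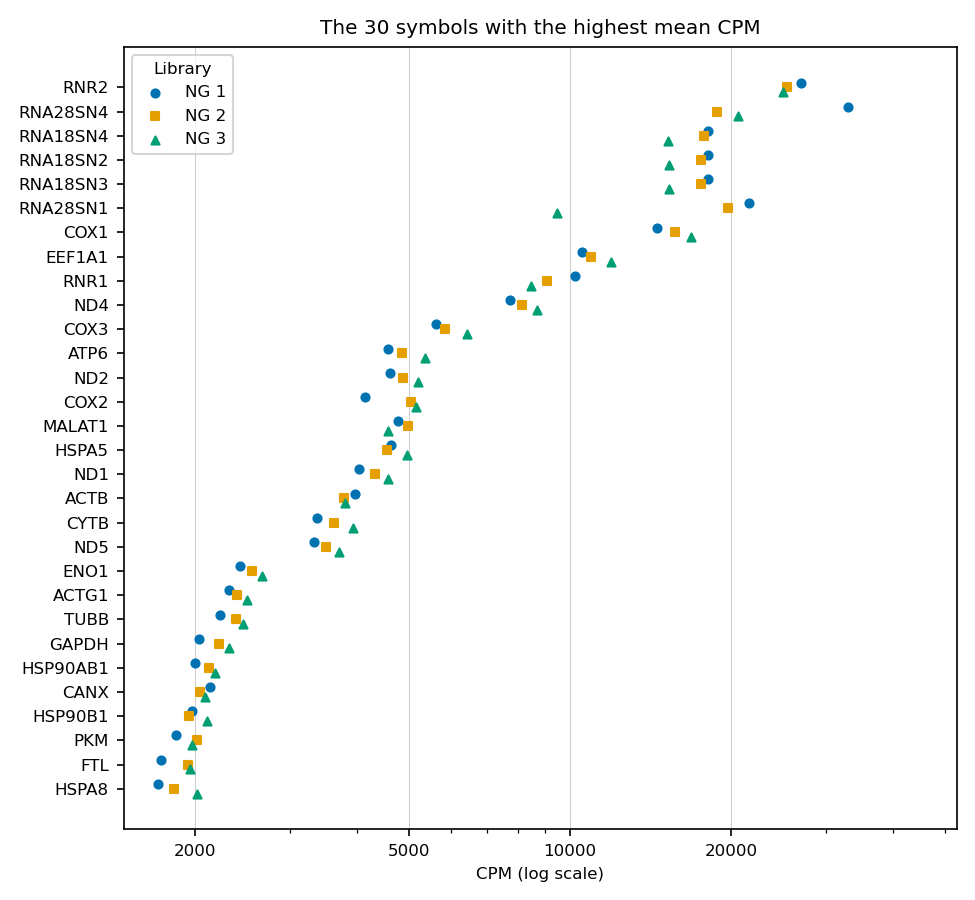
CPM on a log axis in NG 1 (circles), NG 2 (squares) and NG 3 (triangles) for the 30 symbols with the highest mean CPM, ordered by that mean. The libraries lie close together for most genes, whereas RNA28SN4 ranges from 18837 to 32945 CPM and RNA28SN1 from 9437 to 21604 CPM.

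Among nuclear protein-coding genes, EEF1A1 had the highest CPM. EEF1A1, the factor that brings aminoacyl-tRNA to the ribosome, had 10522, 10964 and 11940 CPM in NG 1, NG 2 and NG 3, a mean of 11142 ± 726. The next nuclear protein-coding gene was HSPA5, the chaperone BiP of the endoplasmic reticulum, with 4629, 4549 and 4962 CPM. Other chaperones in the top 30 by CPM were HSP90AB1 (2097 ± 91.6 CPM), the calnexin gene CANX (2087 ± 43.5), HSP90B1 (2009 ± 84.0) and HSPA8 (1850 ± 158). The cytoskeletal genes ACTB, ACTG1 and TUBB averaged 3852 ± 104, 2398 ± 95.2 and 2352 ± 118 CPM. The glycolytic enzymes ENO1, GAPDH and PKM averaged 2545 ± 117, 2186 ± 144 and 1943 ± 94.5 CPM. Many of these genes have processed pseudogenes of near-identical sequence, and reads shared with those may have been assigned either way.

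Correcting for length changed the order of the nuclear protein-coding genes. Per kb of exon EEF1A1 stood at 2164 ± 141 CPM per kb, FTL, the light chain of the iron store ferritin, at 2133 ± 143, and ACTB at 1935 ± 52.3. EEF1A1 and FTL did not differ beyond their spread, and the mean of ACTB was below both. Short transcripts came next: RPS18, a protein of the small ribosomal subunit, at 1837 ± 117 CPM per kb, the thymosin TMSB10, which binds actin monomers, at 1820 ± 91.1, and the calcium-binding protein gene S100A6 at 1425 ± 134. RPS18 and TMSB10 did not differ beyond their spread. HSPA5 stood at 1206 ± 55.9 CPM per kb and GAPDH at 983 ± 64.6. Exon length was the union over all transcripts of a gene, so a gene with long rare transcripts is understated on this scale.

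Ribosomal protein genes made up a broad block of the expressed set. Of 87 symbols for cytosolic ribosomal proteins, 83 reached 1 CPM in all libraries, against 59.9% of all protein-coding symbols. The 87 symbols together held 3.70%, 3.97% and 4.29% of the counts in NG 1, NG 2 and NG 3. All 27 genes of a list of translation factors also reached 1 CPM, beside the same 59.9%, with 2.39% ± 0.126 of the counts (SD, n = 3). RPLP0, the stalk protein of the large subunit, had 1385, 1461 and 1507 CPM. RPL7A, a protein of the large subunit, had 1074, 1106 and 1171 CPM, and RPS3, a protein of the small subunit, had 688, 737 and 752 CPM. In each of the 3 genes NG 1 was lowest and NG 3 highest.

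Messenger RNAs of the translation machinery are known to begin with a pyrimidine run, the terminal oligopyrimidine tract, through which mTOR signalling controls their translation. The start sites of 4 ribosomal protein genes are shown because the short pyrimidine word CTTTC recurs there. Beside them stand 2 ribosomal protein genes without that word, and EEF1A1 and HSPA5, the nuclear protein-coding genes with the highest CPM. The word is not the tract itself. RPLP0, RPS18 and EEF1A1 lack CTTTC but have an unbroken pyrimidine run from the RefSeq start. In RPL12 the word lies downstream of such a run. Each sequence runs 5′ to 3′ on the strand of the gene, 15 bases before and 15 from the RefSeq start in GRCh38.p14, and capitals mark CTTTC.
RPL7A: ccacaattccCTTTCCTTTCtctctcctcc
RPS3: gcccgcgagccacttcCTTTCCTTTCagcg
RPS10: ccgcgcatgctccttcCTTTCcagccccgg
RPL12: ccgcgcgatttccggcctctcggCTTTCgg
RPLP0: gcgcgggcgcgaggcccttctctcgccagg
RPS18: cgcgtcacttccgctctctcttccacagga
EEF1A1: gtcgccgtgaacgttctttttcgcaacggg
HSPA5: ggcgacggtgaggtcgacgccggccaagac
The windows are chr9:133348203-133348232 on the plus strand for RPL7A, chr11:75399503-75399532 plus for RPS3, chr6:34426055-34426084 minus for RPS10 and chr9:127451392-127451421 minus for RPL12. Those of the others are chr12:120201097-120201126 minus for RPLP0, chr6:33272060-33272089 plus for RPS18, chr6:73521018-73521047 minus for EEF1A1 and chr9:125241329-125241358 minus for HSPA5. CTTTC occurred on the gene's strand in 28 of 69 ribosomal protein windows (40.6%) and its reverse complement GAAAG in 1 (1.45%). Over all 27305 windows of the same length in the RefSeq table, CTTTC occurred in 4.18% and GAAAG in 3.17%. In the translation factor list 2 of 19 windows held CTTTC. A match is only a string of letters near an annotated start, and these counts do not show where transcripts began in the cells. The 8 genes shown were chosen after their values and sequences were seen. CTTTC was counted among windows in which its recurrence had been seen, so the 40.6% is a description and no test.

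Both receptors of female sex steroids that define triple-negative disease were at 0 at the RNA level, and ERBB2, which encodes HER2, was not. ESR1, the estrogen receptor alpha, and PGR, the progesterone receptor, had 0 counts in NG 1, NG 2 and NG 3. ESR2, the estrogen receptor beta, had 2, 4 and 10 counts, a mean of 0.24 CPM. Of 33 nuclear and hormone receptor genes 24 (72.7%) reached 1 CPM in all libraries, beside 59.9% of all protein-coding symbols and 31.6% of all symbols. The list was not drawn to be representative, and its median was 11.3 CPM.

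Other steroid and nuclear receptors were present. NR3C1, the glucocorticoid receptor, had 124, 121 and 109 CPM in NG 1, NG 2 and NG 3. NR2F2, the orphan receptor COUP-TFII, had 187, 177 and 172 CPM. With exon length taken into account, NR2F2 stood at 27.8 ± 1.15 CPM per kb, RXRB, a retinoid X receptor that pairs with other nuclear receptors, at 25.5 ± 0.623, PPARD, a fatty acid sensor, at 19.9 ± 0.648, and NR3C1 at 14.4 ± 0.912 (SD, n = 3). PPARG, the receptor of fat cell differentiation, averaged 32.2 ± 0.487 CPM and VDR, the vitamin D receptor, 11.3 ± 1.11 CPM. RARB, a retinoic acid receptor, averaged 0.0301 CPM, and the growth hormone receptor gene GHR and the estrogen-related ESRRB were at 0.

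In the EGFR family 3 of 4 receptors reached 1 CPM, beside 59.9% of all protein-coding symbols. EGFR had 390, 343 and 327 CPM in NG 1, NG 2 and NG 3. ERBB2, which encodes HER2 and has no ligand of its own, had 58.3, 56.6 and 56.7 CPM. ERBB3, whose kinase is nearly inactive, had 4.98, 6.05 and 4.32 CPM, and ERBB4 had 1, 0 and 1 counts. After division by exon length, the order was EGFR at 31.2 ± 2.91 CPM per kb, ERBB2 at 10.1 ± 0.169, ERBB3 at 0.688 ± 0.117 and ERBB4 at 0.00245 ± 0.00213, and no 2 neighbours overlapped.

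Several ligands of these receptors were transcribed by the same cells. HBEGF, heparin-binding EGF-like growth factor, had 61.5, 61.2 and 61.6 CPM in NG 1, NG 2 and NG 3, and the amphiregulin gene AREG had 56.2, 61.4 and 61.9 CPM. TGFA, NRG1 and the epiregulin gene EREG averaged 48.0 ± 1.99, 38.4 ± 1.46 and 27.8 ± 1.78 CPM. EGF itself averaged 2.63 ± 0.083 CPM, and the neuregulin genes NRG3 and NRG4 had no count. In all 7 of 11 ligand genes (63.6%) reached 1 CPM, against 59.9% of all protein-coding symbols. Corrected for length, AREG stood at 48.2 ± 2.56 CPM per kb and HBEGF at 25.7 ± 0.0905.

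AXL, the receptor of the ligand GAS6, had the highest CPM of the other receptor tyrosine kinases, with 761, 694 and 628 CPM in NG 1, NG 2 and NG 3. EPHA2, an ephrin receptor, had 269, 255 and 255 CPM, and MET, the receptor of hepatocyte growth factor, had 273, 240 and 237 CPM. NG 1 was the highest library in each of the 3. Per kb of exon AXL stood at 142 ± 13.6 CPM per kb, EPHA2 at 65.5 ± 2.01, MET at 37.4 ± 2.94, FGFR1, a fibroblast growth factor receptor, at 15.1 ± 0.463, and the collagen receptor gene DDR1 at 14.6 ± 0.355. The AXL relative TYRO3 stood at 2.26 ± 0.0665 CPM per kb. The insulin receptor gene INSR and IGF1R averaged 46.1 ± 2.52 and 36.8 ± 3.05 CPM. Of the 34 genes 21 (61.8%) reached 1 CPM, near the 59.9% of all protein-coding symbols, and 7 had no count, beside 21.7% of all protein-coding symbols. Among those at 0 were KIT, FGFR2, EPHA1, FLT4, RET and FLT3. The RNA of PDGFRA, a fibroblast marker, averaged 0.0301 CPM, while PDGFRB averaged 9.76 ± 0.658 CPM.

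Of 25 receptors for cytokines and death ligands 24 reached 1 CPM in all libraries, against 59.9% of all protein-coding symbols. IL6ST, the shared signalling subunit gp130 of the interleukin 6 family, had 552, 499 and 456 CPM in NG 1, NG 2 and NG 3. OSMR, the oncostatin M receptor subunit that pairs with gp130, had 297, 286 and 295 CPM, and the leukemia inhibitory factor receptor LIFR averaged 48.7 ± 4.55 CPM. IL6R, the subunit that binds interleukin 6 itself, had 0.845, 1.54 and 1.19 CPM and was the member that missed the limit. With exon length taken into account, IL6ST stood at 55.4 ± 5.30 CPM per kb, OSMR at 47.6 ± 1.02 and IL6R at 0.197 ± 0.0573. TNFRSF10B, the TRAIL receptor DR5, averaged 194 ± 2.16 CPM and FAS 4.01 ± 0.705 CPM.

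Of 31 G protein-coupled receptor genes 19 (61.3%) reached 1 CPM, against 59.9% of all protein-coding symbols. GPRC5A, an orphan receptor induced by retinoic acid, had 279, 272 and 237 CPM in NG 1, NG 2 and NG 3. ADGRE5, the adhesion receptor CD97, had 205, 221 and 212 CPM, and the protease-activated receptor F2RL1 had 164, 176 and 173 CPM. CXCR4, a chemokine receptor of metastatic homing, averaged 3.04 ± 0.311 CPM, while CXCR1 and CXCR2, the receptors for CXCL8, had no count.

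Receptors and ligands of the NOTCH, WNT, TGF-beta and Hedgehog pathways reached 1 CPM in 23 of 30 cases (76.7%), against 59.9% of all protein-coding symbols. NOTCH2 had 375, 362 and 339 CPM in NG 1, NG 2 and NG 3, and NOTCH1 had 66.7, 56.8 and 51.9 CPM. TGFBR2, the ligand-binding receptor of TGF-beta, averaged 168 ± 7.08 CPM and LRP5, a WNT co-receptor, 148 ± 8.51 CPM. After division by exon length, TGFBR2 stood at 35.7 ± 1.51 CPM per kb, LRP5 at 28.6 ± 1.65, NOTCH2 at 22.3 ± 1.14 and NOTCH1 at 6.29 ± 0.811. SMO, the signal transducer of the Hedgehog pathway, had no count, whereas its inhibitor PTCH1 averaged 16.8 ± 2.48 CPM.

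**Figure D2:**
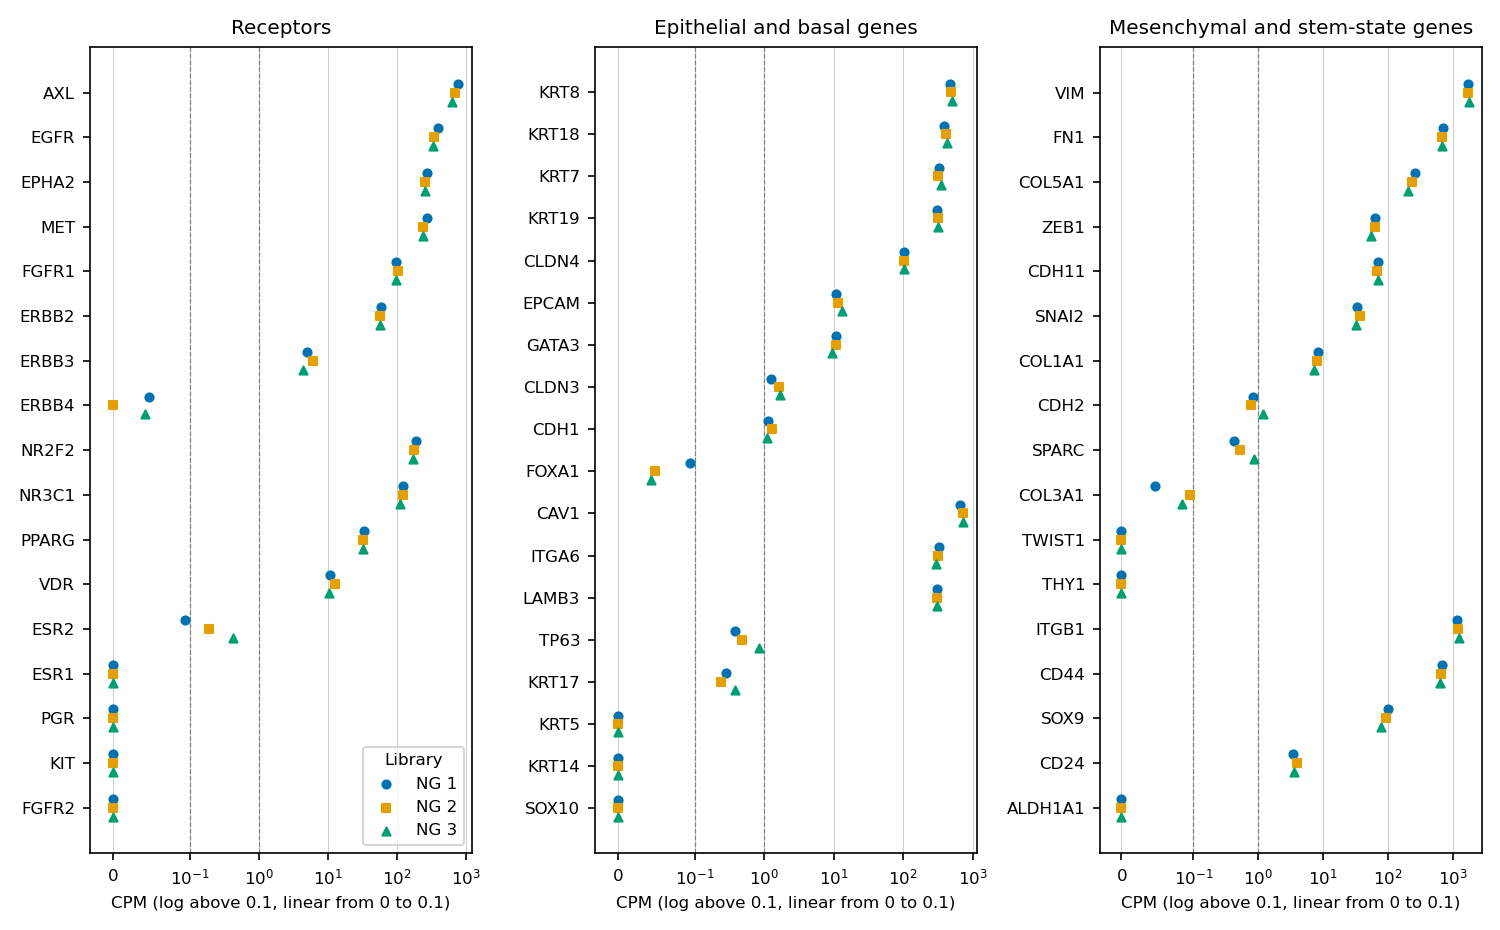
CPM in each library for 17 receptors, 18 epithelial or basal genes and 17 mesenchymal or stem-state genes, on an axis that is linear up to 0.1 CPM and logarithmic above it, with dashed lines at 0.1 and 1 CPM. The 3 libraries nearly coincide above 1 CPM, and ESR1, PGR, KIT, FGFR2, KRT5, KRT14, SOX10, TWIST1, THY1 and ALDH1A1 lie at 0 in all of them.

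Simple keratins fitted the epithelial label, while E-cadherin and EPCAM were low and other junction genes, given below, were mixed. KRT8 had 482, 491 and 504 CPM in NG 1, NG 2 and NG 3, and its partner KRT18 had 395, 413 and 433 CPM. KRT7 averaged 337 ± 15.6 CPM and KRT19 315 ± 9.35 CPM. CDH1, which encodes E-cadherin, had 1.13, 1.30 and 1.10 CPM, and the adhesion molecule EPCAM had 10.8, 11.5 and 13.3 CPM. Corrected for length, KRT19 stood at 226 ± 6.72 CPM per kb, KRT18 at 206 ± 9.45, KRT7 at 192 ± 8.88 and KRT8 at 107 ± 2.43. KRT8 thus had the highest CPM of these keratins and the lowest value per kb. Exon length was the union over transcripts, so their order is uncertain. On the same scale EPCAM stood at 5.92 ± 0.641 and CDH1 at 0.236 ± 0.0213, so the separation between the keratins and these 2 genes is far beyond the spread. In bulk RNA, fewer cells of a type and less RNA per cell cannot be told apart, so a low value may come from every cell or from few.

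Claudins, the strand-forming proteins of tight junctions, were uneven. CLDN3 had 1.27, 1.63 and 1.69 CPM in NG 1, NG 2 and NG 3, CLDN7 had 20.6, 21.6 and 21.1 CPM, and CLDN4 had 102, 102 and 104 CPM. Per kb of exon CLDN4 stood at 24.5 ± 0.316 CPM per kb, CLDN7 at 10.2 ± 0.228 and CLDN3 at 1.20 ± 0.181. CLDN1, another barrier claudin, averaged 20.9 ± 1.35 CPM. Of the 30 cadherin, claudin and junction genes listed, 15 reached 1 CPM and 8 had no count, against 59.9% and 21.7% of all protein-coding symbols.

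Luminal transcription factors were low or absent. GATA3, a factor of luminal identity, had 10.8, 10.8 and 9.48 CPM in NG 1, NG 2 and NG 3. FOXA1, the pioneer factor of the estrogen receptor, had 2, 1 and 1 counts, and ELF5, the factor of alveolar cells, had none. GRHL2, a guardian of the epithelial state, had 1, 2 and 0 counts, and the splicing factor ESRP1 averaged 0.624 ± 0.115 CPM. Other epithelial genes were clearly present, among them the desmosome gene DSP at 153 ± 12.9 CPM. In all 21 of 31 epithelial or luminal genes (67.7%) reached 1 CPM, against 59.9% of all protein-coding symbols.

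Basal genes were detected in part. The keratins KRT5, KRT14, KRT6A and KRT6B and the factor SOX10 had no count, KRT17 had 6, 5 and 9 counts, and TP63 had 8, 10 and 20 counts. CAV1, the coat protein of caveolae, had 666, 727 and 718 CPM. ITGA6, the laminin receptor subunit, had 329, 319 and 298 CPM, and LAMB3, a chain of laminin 332, had 308, 303 and 307 CPM. Of 24 basal or myoepithelial genes 13 (54.2%) reached 1 CPM, against 59.9% of all protein-coding symbols, and 6 had no count.

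Over the whole keratin family, 10 of 50 genes reached 1 CPM in all libraries and 32 had no count, against 59.9% and 21.7% of all protein-coding symbols. Beside the 4 simple keratins, KRT80 had 167, 171 and 163 CPM in NG 1, NG 2 and NG 3, and the hair keratin KRT81 had 70.2, 73.4 and 77.8 CPM. KRT10, a keratin of differentiated skin, averaged 31.3 ± 1.31 CPM. KRT81 and KRT86 are close relatives in sequence, so the split between KRT81 and the 2.56 CPM of KRT86 is uncertain.

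Mesenchymal genes were present at high levels with marked gaps. VIM, the intermediate filament of mesenchymal cells, had 1718, 1696 and 1761 CPM in NG 1, NG 2 and NG 3. The matrix protein gene FN1 had 696, 685 and 683 CPM. With exon length taken into account, VIM stood at 923 ± 17.9 CPM per kb, above KRT19 at 226 ± 6.72 by more than any spread between libraries. The matricellular gene CCN1 stood at 686 ± 16.4 CPM per kb.

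The transcription factors of the mesenchymal state were uneven. ZEB1, a repressor of E-cadherin, had 62.6, 63.0 and 55.2 CPM in NG 1, NG 2 and NG 3, and SNAI2 had 33.8, 37.0 and 32.5 CPM. ZEB2 and SNAI1 averaged 13.5 ± 1.42 and 1.58 ± 0.063 CPM, while TWIST1 and TWIST2 had no count. CDH2, which encodes N-cadherin, averaged 0.933 ± 0.222 CPM, and CDH11, a cadherin of mesenchyme, 69.6 ± 1.04 CPM. SPARC, a collagen-binding matrix protein, had 9, 11 and 20 counts, and the stromal genes THY1, PDPN, DCN and POSTN had none. In all 26 of 36 mesenchymal genes (72.2%) reached 1 CPM, against 59.9% of all protein-coding symbols.

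Of 33 collagen genes 19 (57.6%) reached 1 CPM, against 59.9% of all protein-coding symbols. COL5A1 had 257, 234 and 206 CPM in NG 1, NG 2 and NG 3, and COL12A1 had 236, 219 and 214 CPM. The basement membrane gene COL4A2 averaged 174 ± 12.4 CPM. The fibrillar collagens of stroma were low, with COL1A1 at 7.89 ± 0.610 CPM, COL1A2 at 6.60 ± 1.02 CPM and COL3A1 at 1, 2 and 2 counts.

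Surface genes used to describe stem-like breast cancer cells showed high CD44 with low CD24. CD44, the hyaluronan receptor, had 672, 665 and 641 CPM in NG 1, NG 2 and NG 3, and CD24, a small mucin-like antigen, had 3.47, 3.94 and 3.51 CPM. After division by exon length, these were 108 ± 2.63 and 1.20 ± 0.0839 CPM per kb. The aldehyde dehydrogenase ALDH1A1 had no count, while ALDH1A3 averaged 8.25 ± 0.157 CPM. SOX9, a factor of breast progenitors, averaged 91.4 CPM, and SOX2 had 4, 6 and 6 counts. The stem-cell antigen gene PROM1 had 2, 0 and 3 counts.

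Integrins, the receptors for matrix, were led by the subunits ITGB1 and ITGA3, which together bind laminin. ITGB1 had 1178, 1221 and 1260 CPM in NG 1, NG 2 and NG 3, and ITGA3 had 1096, 1065 and 1016 CPM. ITGAV, ITGA2 and ITGA5 averaged 188 ± 12.8, 159 ± 2.78 and 141 ± 5.76 CPM. Corrected for length, ITGB1 stood at 310 ± 10.5 CPM per kb, ITGA3 at 217 ± 8.27 and ITGA6 at 54.0 ± 2.73. In all 14 of 26 integrin genes (53.8%) reached 1 CPM, against 59.9% of all protein-coding symbols, and the leukocyte subunits ITGAL and ITGAD had no count.

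Membrane-binding and actin-binding genes were nearly all detected, and S100 genes in part. All 17 annexin, galectin and caveola genes, 36 of 40 cytoskeletal genes and 9 of 20 S100 genes reached 1 CPM, beside 59.9% of all protein-coding symbols. S100A6 had 1085, 1226 and 1309 CPM in NG 1, NG 2 and NG 3, and S100A4, a gene linked with metastasis, had 175, 204 and 205 CPM, with NG 1 lowest in both. S100A8 and S100A9, the myeloid calprotectin pair, had no count. ANXA2, an annexin that binds S100A10, had 1247, 1375 and 1468 CPM. Per kb of exon S100A11 stood at 508 ± 48.7 CPM per kb, S100A10 at 249 ± 17.0 and S100A4 at 236 ± 20.4. S100A10 and S100A4 did not differ beyond their spread.

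Of 52 genes for secreted factors, proteases and their inhibitors 40 (76.9%) reached 1 CPM, against 59.9% of all protein-coding symbols. CXCL8, the neutrophil chemokine, had 458, 436 and 470 CPM in NG 1, NG 2 and NG 3, and IL6 had 207, 205 and 213 CPM. CSF1, the macrophage growth factor, had 436, 430 and 426 CPM. With exon length taken into account, CXCL8 stood at 227 ± 8.54 CPM per kb, DKK1, a secreted WNT inhibitor, at 171 ± 5.83, IL6 at 122 ± 2.59, VEGFA, the main angiogenic factor, at 97.4 ± 2.37 and CSF1 at 88.1 ± 1.09. TNF had 6, 6 and 7 counts. Among proteases, the lysosomal CTSD averaged 1092 ± 12.3 CPM, the membrane-bound collagenase MMP14 476 ± 7.80 CPM and the urokinase gene PLAU 391 ± 8.01 CPM. MMP1, a secreted collagenase, averaged 18.9 ± 1.25 CPM, whereas the gelatinases MMP2 and MMP9 averaged 0.14 and 0.247 CPM.

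Sugar uptake and glycolysis genes were read in cells with glucose at 10 mM. Of 26 genes 22 (84.6%) reached 1 CPM, against 59.9% of all protein-coding symbols, and the list held 1.37% ± 0.0783 of the counts (SD, n = 3). SLC2A1, the glucose transporter GLUT1, had 463, 482 and 473 CPM in NG 1, NG 2 and NG 3. LDHA, the lactate dehydrogenase subunit of glycolytic cells, had 1624, 1751 and 1856 CPM. Of the hexokinases HK1 averaged 218 ± 2.28 and HK2 86.6 ± 4.30 CPM, which was 46.7 ± 0.488 and 14.6 ± 0.724 CPM per kb. The lactate exporter gene SLC16A3 averaged 409 CPM and SLC16A1 2.41 ± 0.501 CPM.

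Markers of other lineages were mostly absent. At 1 CPM in all libraries were 4 of 26 haematopoietic, 4 of 12 endothelial, 6 of 20 neural or melanocytic, 1 of 16 muscle or liver and 2 of 28 germline, pluripotency or cancer-testis genes, beside 59.9% of all protein-coding symbols. The pan-leukocyte gene PTPRC had 1, 4 and 5 counts in NG 1, NG 2 and NG 3, the endothelial CDH5 0, 2 and 0, and the liver gene ALB 0, 0 and 1. Those above 50 CPM were MBP, SERPINA1, ENO2, CD68 and the cancer-testis genes SPANXB1 and XAGE1B, while others such as CD14 and CSF1R averaged 2.31 and 2.04 CPM. SERPINA1, the alpha-1 antitrypsin gene of liver, had 96.3, 102 and 104 CPM, and ROBO4, a receptor of endothelium, had 42.2, 39.0 and 37.6 CPM. MBP, whose locus also makes non-myelin transcripts, averaged 119 ± 5.87 CPM, and CD68, a lysosomal protein not limited to macrophages, 58.9 ± 1.12 CPM.

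Cancer-testis genes are normally limited to germ cells and can be switched on in tumours. Here SPANXB1 had 96.5, 95.9 and 102 CPM in NG 1, NG 2 and NG 3, and XAGE1B had 97.1, 86.4 and 111 CPM. Both belong to X-linked families of near-identical copies, so the share of each copy is uncertain. By contrast MAGEA3 averaged 0.349 CPM, and PRAME, MAGEA1, MAGEA4 and GAGE1 had no count. The pluripotency factor NANOG had none either, and POU5F1 averaged 0.545 CPM.

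Of 40 oncogenes and tumour suppressors 35 (87.5%) reached 1 CPM, against 59.9% of all protein-coding symbols. CCND1, the cyclin that opens the cell cycle, had 493, 477 and 440 CPM in NG 1, NG 2 and NG 3, and MYC had 219, 210 and 226 CPM. RB1, the retinoblastoma protein gene, averaged 68.9 ± 1.16 CPM. NF2, the merlin gene of Hippo signalling, had 8.69, 8.30 and 8.43 CPM, and BRCA1 averaged 37.8 ± 2.48 CPM. The telomerase gene TERT averaged 1.71 ± 0.346 CPM. CDKN2A, CDKN2B and MTAP had no count in any library.

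Those 3 genes lie in a block of chromosome 9 that was almost without counts. CDKN2A and CDKN2B encode inhibitors of the cyclin D kinases, and MTAP encodes a methionine salvage enzyme. From HACD4 to IZUMO3, that is from base 20999509 to base 24545897 of chromosome 9 in GRCh38.p14, all 24 protein-coding genes were at 0 in NG 1, NG 2 and NG 3, over 3546389 bases. The block holds the type I interferon cluster, KLHL9, MTAP (21802636 to 21941115), CDKN2A (21967752 to 21995324), CDKN2B, DMRTA1 and ELAVL2. Of the non-coding symbols there, the long non-coding RNA LOC107987054 had 1 count in NG 3 and the rest of those listed in the block had none. FOCAD, the neighbour on one side, had 164, 173 and 175 counts, and TUSC1, on the other, had 139, 131 and 154 counts. MLLT3 beyond FOCAD averaged 12.5 ± 0.592 CPM, and PLAA beyond TUSC1 53.2 ± 1.20 CPM.

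A row of silent genes is not rare in itself, and tissue-restricted families are known to lie in clusters. The 4282 protein-coding genes at 0 fell into 2297 runs along the chromosomes, of which 39 had 10 or more genes. The run from HACD4 to IZUMO3 ranked 8 by number of genes. The run with the most genes, 62 from OR4X2 to LRRC55 on chromosome 11, lies among olfactory receptor genes. The run ranked 2, of 45 genes from LOC124905300 to CDY1, spans 25350218 bases of chromosome Y. No protein-coding gene was placed on either side of it, and its cause was not tested. Another of 36 genes from GRIK1 to KRTAP19-8 on chromosome 21 holds keratin-associated protein genes. The interferon genes of the chromosome 9 block are likewise silent in most unstimulated cells, whereas MTAP, KLHL9 and HACD4 are known from many tissues. Loss of the CDKN2A locus is described for this cell line. No DNA was measured here, and copy number was not tested.

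**Figure D3:**
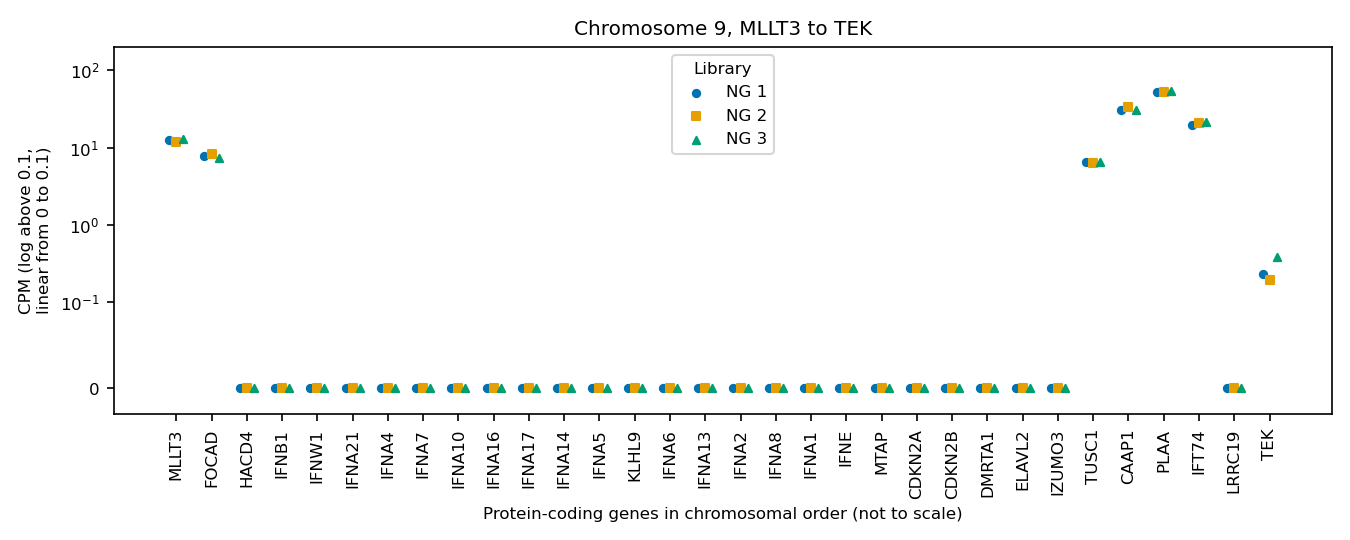
CPM of the protein-coding genes of chromosome 9 from MLLT3 to TEK in chromosomal order, spaced evenly and not by distance, for NG 1, NG 2 and NG 3, linear up to 0.1 CPM and logarithmic above. The 24 genes from HACD4 to IZUMO3 lie at 0 in each library, between FOCAD at 7.80 CPM and TUSC1 at 6.45 CPM on average.

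Genes used as references in quantitative PCR were all detected, 29 of 29 at 1 CPM in each library, beside 59.9% of all protein-coding symbols. TBP had 21.3, 19.5 and 21.8 CPM in NG 1, NG 2 and NG 3, HPRT1 had 44.2, 47.6 and 48.9 CPM, and GAPDH had 2029, 2216 and 2312 CPM. The SD was 5.90% of the mean for TBP, 5.14% for HPRT1 and 6.57% for GAPDH, against 2.70% for ACTB. The 10 steadiest genes averaging 50 CPM or more, a limit that TBP and HPRT1 did not reach, were led by the chemokine gene CXCL2 at 86.8, 86.8 and 86.9 CPM and the phosphatase gene PTP4A1 at 256 CPM on average. Their spread was below what counting alone gives, and they were selected for it among 4047 genes.

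The 3 libraries were alike for most genes. The common biological coefficient of variation was 6.37%, and the median coefficient of variation of symbols averaging 1 CPM or more was 5.83%. For genes between 1 and 5 CPM the median was 13.7%. The variance of these genes over that of counting had a median of 0.927. In libraries simulated with counting alone that median was 0.701, over genes of all levels. Between 100 and 500 CPM the median coefficient of variation was 3.88%, where counting alone gives 1.72%. Above 1000 CPM it was 5.27%, where counting gives 0.520%. The spread of low genes was thus somewhat above that of counting, and that of abundant genes exceeded counting by more. Over pairs of libraries, the chi-square of the counts divided by its degrees of freedom was 11.7 for NG 1 and NG 2, 27.4 for NG 1 and NG 3 and 11.7 for NG 2 and NG 3. Without cytosolic and mitochondrial ribosomal RNA it was 3.57, 8.74 and 3.50. No pair agreed within sampling noise, so no library was taken to be another deposited again. This does not tell separate cultures from separate preparations of 1 culture.

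Among 10883 symbols averaging 5 CPM or more, 69 (0.634%) had a highest library at least 1.5 times the lowest. Of these, 9 were ribosomal RNA copies, 11 were read-through symbols that join 2 neighbouring genes and 5 had only a locus number. ST6GALNAC4-ST6GALNAC6-AK1, counted with the rest, joins 3. No member of the lists described above passed that limit except 9 of the 16 ribosomal RNA symbols with at least 5 CPM. The ribosomal RNA genes lie in repeats of near-identical sequence on several chromosomes. Their 28S copies summed to 57683, 40424 and 30862 CPM in NG 1, NG 2 and NG 3, and the 18S copies to 54305, 52881 and 45843 CPM. The 28S sum was highest in NG 1 and differed 1.87-fold between the extremes, against 1.18-fold for the 18S sum.

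Several of the most variable genes were pairs of copies whose sum varied less than either copy. SLX1A and SLX1B, which encode the same structure-specific nuclease from a duplicated stretch of chromosome 16, had 14.9, 1.01 and 0.508 CPM and 0, 13.5 and 13.3 CPM in NG 1, NG 2 and NG 3. Their sums were 14.9, 14.5 and 13.8 CPM. FAM156A and FAM156B, neighbours on the X chromosome, had 32.0, 41.2 and 13.1 CPM and 32.5, 22.8 and 50.3 CPM, with sums of 64.6, 63.9 and 63.4 CPM. The sums of SPANXA1 and SPANXA2 were 16.9, 18.1 and 19.9 CPM, and those of BOLA2 and BOLA2B 13.6, 16.7 and 17.6 CPM. The level of 1 copy in these pairs is therefore uncertain.

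FAM220A and SAGSIN1 behaved in the same way. FAM220A had 20.8, 0 and 1.78 CPM in NG 1, NG 2 and NG 3, and SAGSIN1 had 0, 20.7 and 23.2 CPM, with sums of 20.8, 20.7 and 24.9 CPM. Whether the pair shares exons was not checked, because SAGSIN1 was not matched in the annotation used here.

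**Figure D4:**
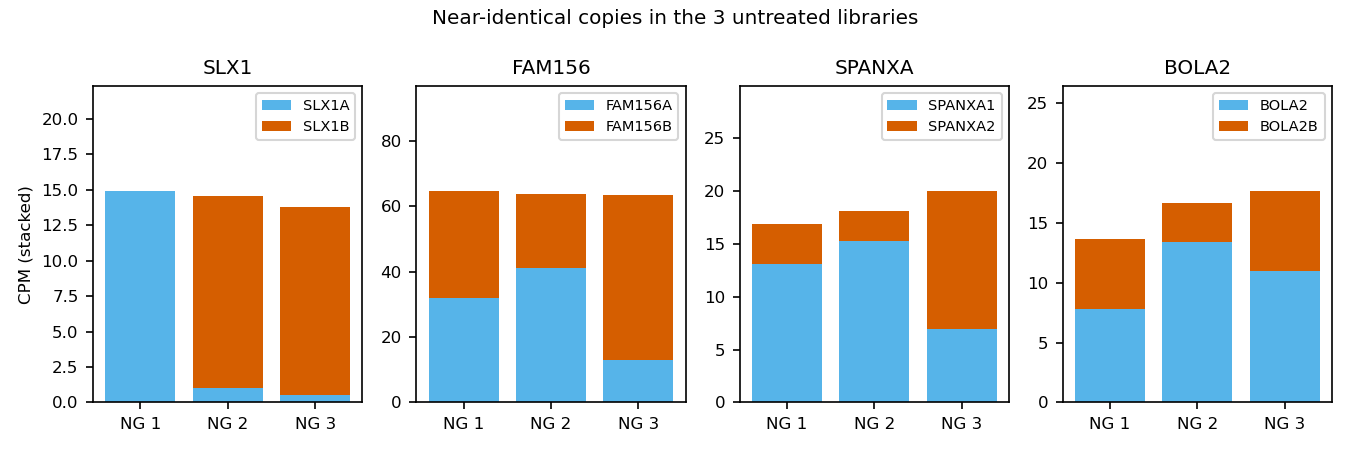
Stacked CPM of SLX1A and SLX1B, FAM156A and FAM156B, SPANXA1 and SPANXA2, and BOLA2 and BOLA2B in NG 1, NG 2 and NG 3. The parts of a bar trade places between libraries while its height stays at 13.8 to 14.9 CPM for SLX1 and 63.4 to 64.6 CPM for FAM156.

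A smaller difference between the libraries followed exon length. Over 10385 protein-coding genes averaging 5 CPM or more, the log2 ratio of NG 1 to NG 3 and the exon bases had a Spearman rho of 0.52, a description across genes that share the same libraries. In the bin of shortest genes (207 to 1812 bases, 1302 genes) the median log2 ratio was -0.13 and 17.2% of genes were higher in NG 1. In the bin of longest genes (7779 to 35303 bases, 1298 genes) it was 0.15, and 84.7% were higher in NG 1. NG 2 lay between, with medians of NG 1 over NG 2 of -0.06 and 0.08 and of NG 2 over NG 3 of -0.07 and 0.06 in the same bins. Over bins of GC content the median of NG 1 over NG 3 stayed between -0.04 and 0.05.

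The trend can be seen in single genes. FLNA, the actin cross-linker filamin A, had 1859, 1637 and 1527 CPM in NG 1, NG 2 and NG 3, and MYH9, a non-muscle myosin heavy chain, had 1432, 1311 and 1167 CPM. Short S100A6 ran the other way, as given above, as did the mitochondrial and ribosomal protein genes. The ribosomal RNA share fell in the same order of libraries, and its part in the trend was not tested. RNA integrity and fragment lengths were not measured here, and their part was not tested either.

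**Figure D5:**
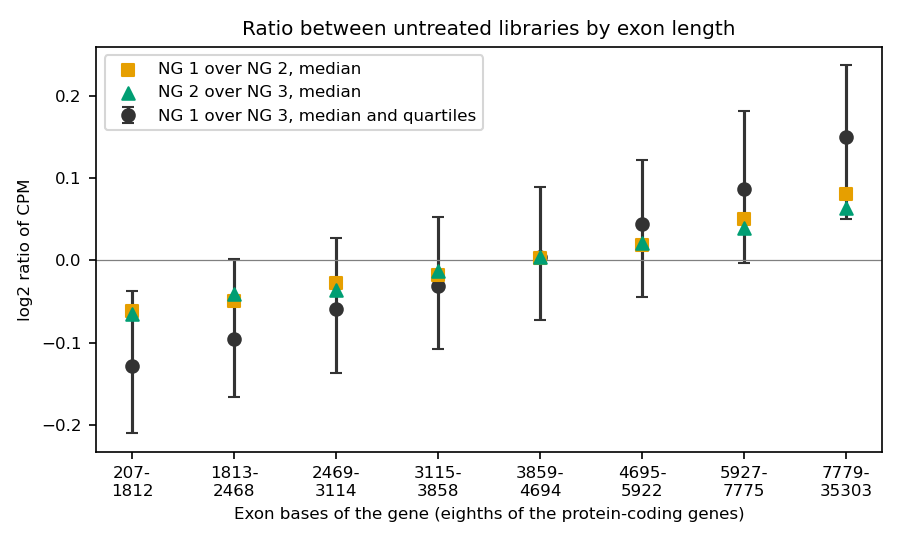
Median log2 ratio of CPM between libraries over 8 bins of exon length with about equal numbers of protein-coding genes, as NG 1 over NG 3 with quartiles (circles with bars), NG 1 over NG 2 (squares) and NG 2 over NG 3 (triangles). For NG 1 over NG 3 the median runs from -0.13 in the shortest bin to 0.15 in the longest.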

How the data were processed

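RNA of 3 libraries of untreated cells was described, and the other 9 libraries were not used here. The authors deposited a table of counts per gene symbol for each library. GRCh38 and the tools GATK, Salmon, STAR and fastp come from the submitters' processing notes, without a role or a version. The counting tool, its strand setting and the gene annotation are likewise not given in the sources used here, so a gene and an antisense partner may share reads. CPM was computed here with the TMM factors of edgeR 4.0.16 in R 4.3.3, in Python 3.11.15 with pandas 2.3.3, and figures with matplotlib 3.10.9. The common biological coefficient of variation came from edgeR with an intercept alone and was tested on simulated data. No comparison between groups was made and no p-value was computed, and groups of 3 were not tested for outliers.

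Coordinates (1-based), promoters and start sites come from RefSeq annotation of GRCh38.p14, which held 40246 of the symbols (98.3%). Exon length is the union of GENCODE 29 basic transcripts, found for 25827 symbols. Genes were taken from 31 lists with 825 entries, 824 of them in the tables. The members and lists were chosen with earlier results of these data known. The genes set out for naming were the 30 symbols with the highest CPM, the 10 highest per kb, and the 10 most variable and 10 steadiest genes. Up to 8 highest and 8 lowest members of each list were added. Not all of these are given in the text. Other genes named, among them the examples of mid-level list members, TMSB10 and the copies of variable genes, were chosen after their values were seen. Results for some genes of the lists are left out.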

Additional observations from a re-analysis of the deposited data

How the results depend on the processing

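No paired analysis was possible because only 1 group is described and no test was run. Where ribosomal RNA was left out in this section, only its cytosolic symbols were dropped. The counts of detected and silent symbols held within 1.5 times under all alternatives tried: at or above 1 CPM were 12949 symbols as reported, 13056 with ribosomal RNA left out, 13853 at a limit of 0.5 CPM, 10706 at 5 CPM, 13581 when 1 library sufficed, and 13027 to 13058 with a library left out. Symbols at 0 numbered 19419 to 19561 with a library left out and 22336 when up to 3 counts in all were allowed. Leaving ribosomal RNA out of the total took the share of the top 10 symbols to 10.5%, that of the top 100 to 24.3% and that of mitochondrial messenger RNA to 6.48%, by construction. The median coefficient of variation was 5.98% with library totals, 5.82% with RLE factors, 5.88% without ribosomal RNA, 5.12% from 5 CPM, 10.8% with no filter, and 4.17% to 5.95% with a library left out. The biological coefficient of variation was 6.47%, 6.37%, 5.38%, 6.25% and 6.41% in the same order. It was 4.54% without NG 1, 8.26% without NG 2 and 5.26% without NG 3. The cause was not tested. Without ribosomal RNA the CPM of the named genes moved by 10.5% at the median. Without NG 1, FAM220A, SLX1A, SLX1B, SAGSIN1 and 3 ribosomal RNA copies moved by over 1.5 times, and SPANXA2 did without NG 3, among genes with at least 1 CPM. For the length trend, alternatives added after the data were seen gave medians of -0.16 and 0.11 with library totals and -0.16 and 0.15 in genes with 45 to 55% GC. Depth limits genes under 5 CPM, where counting made up most of the spread.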

Other observations

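Among long non-coding RNAs, MALAT1, a nuclear speckle RNA, had 4785, 4987 and 4578 CPM in NG 1, NG 2 and NG 3, and NEAT1, the scaffold of paraspeckles, had 1414, 1634 and 1529 CPM. NORAD, a cytoplasmic RNA that binds PUMILIO proteins, averaged 497 ± 25.5 CPM, and MIR222HG, the host of a microRNA pair, 117 ± 4.21 CPM. Per kb of exon MALAT1 stood at 687 ± 29.3 CPM per kb, NORAD at 93.1 ± 4.77 and NEAT1 at 67.0 ± 4.83 (SD, n = 3). No count was found for 1135 of 1194 small nucleolar RNA symbols (95.1%) and 444 of 448 transfer RNA symbols, beside 45.4% of all symbols. Of 4 symbols of the small cytoplasmic class, which holds the signal recognition particle RNA RN7SL1, 3 reached 1 CPM in all libraries. Among all symbols 31.6% did.

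The word TATAA, part of the TATA box, was searched in the 50 bases before RefSeq starts. On the gene's strand it occurred in 16 of 79 windows of the nuclear protein-coding genes with the highest CPM (20.3%), in 463 windows of protein-coding genes at 0 (14.3%) and in 281 windows of those at 1 CPM in all libraries (2.87%), against 5.12% of all 27305 windows. The reverse complement TTATA occurred in 4 of the 79 windows (5.06%), in 4.51% of those of genes at 0, in 1.10% of those of detected genes and in 2.71% of all. Both words were thus more frequent in genes at 0 than in detected genes, so the difference is not limited to the gene's strand. These are descriptions with no test.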
